A study of Mus musculus with 6 samples.

Results

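The 7 genes described here encode regulators of the POZ zinc finger family: Bcl6, Zbtb1, Zbtb7a, Zbtb7b, Zbtb16, Zbtb17 and Zbtb20. They were taken by gene symbol from 18193 genes measured on Affymetrix mouse genome arrays, where 23 of 34945 probe sets with a single gene symbol belonged to them. They were picked with the difference between the sorted groups already in view, so their differences are given below as descriptions, with no p-value for any of them. How many of them passed a fit is given beside the share or number of all genes that did, and nothing is read from it. The samples were T-cell acute lymphoblastic leukaemia cells from the spleens of C57BL/6 mice aged 12 weeks, collected 4 weeks after transplantation into congenic recipients. All of them carried Notch1deltaE, an activated form of the NOTCH1 receptor, and a mycGFP allele, and all were CD25+. They were sorted into MycGFP negative cells (3 arrays) and MycGFP positive cells (3 arrays), and the design describes 3 independent leukaemias.

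Proteins of this family join an amino-terminal POZ (BTB) domain, through which they pair and recruit corepressors such as NCOR, SMRT and BCOR, to carboxy-terminal zinc fingers that bind DNA. In lymphocytes several act as lineage switches: BCL6 directs germinal centre B cells and follicular helper T cells, ThPOK (Zbtb7b) the CD4 lineage of thymocytes, and PLZF (Zbtb16) innate-like T cells. MIZ1 (Zbtb17) binds MYC, and the complex of both represses genes that MIZ1 alone can activate.

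Bcl6 and Zbtb20 were the genes of the 7 with the largest differences, both lower in MycGFP positive cells, and both lie on chromosome 16. RefSeq promoter windows of GRCm38.p6, from 250 bases before to 50 bases after a transcript start, were held for 6 of the 7 genes, 9 windows in all. Those of Bcl6 and Zbtb20 are shown because these are the genes that differed. Capitals mark the matches to CACGTG, the E-box that MYC and MAX bind, and to TTCNNNGAA, the site type of STAT factors, which the BCL6 consensus TTCCTAGAA also follows. Both strands were searched, and no printed matches overlap.
Bcl6 at chr16:23988803-23989102, minus strand: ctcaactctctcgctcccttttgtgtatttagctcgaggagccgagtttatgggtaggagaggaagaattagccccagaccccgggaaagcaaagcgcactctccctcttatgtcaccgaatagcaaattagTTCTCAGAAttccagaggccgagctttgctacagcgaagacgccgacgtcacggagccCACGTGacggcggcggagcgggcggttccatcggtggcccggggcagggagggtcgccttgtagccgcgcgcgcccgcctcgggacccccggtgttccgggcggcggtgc
Bcl6 at chr16:23981234-23981533, minus strand: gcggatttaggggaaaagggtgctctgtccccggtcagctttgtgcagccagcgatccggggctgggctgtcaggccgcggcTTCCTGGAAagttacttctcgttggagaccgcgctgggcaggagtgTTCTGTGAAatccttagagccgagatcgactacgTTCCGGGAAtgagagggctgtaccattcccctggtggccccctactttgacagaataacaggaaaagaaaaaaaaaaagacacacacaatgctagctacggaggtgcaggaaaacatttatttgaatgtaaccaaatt
Zbtb20 at chr16:43247034-43247333, plus strand: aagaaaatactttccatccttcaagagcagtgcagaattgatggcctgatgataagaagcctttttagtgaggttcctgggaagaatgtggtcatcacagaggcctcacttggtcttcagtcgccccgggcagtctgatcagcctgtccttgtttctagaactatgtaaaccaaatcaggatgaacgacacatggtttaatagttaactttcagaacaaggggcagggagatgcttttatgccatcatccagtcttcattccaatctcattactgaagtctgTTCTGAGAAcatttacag

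Of the 9 windows only the first of Bcl6 held CACGTG, with its first base 60 bases before the start, and 7.15% of the 32851 mouse promoter windows of that length held it. TTCNNNGAA matched in both Bcl6 windows and in that of Zbtb20, against 8.3% of all windows. The second Bcl6 window held 3 matches, and 11 of all windows (0.0335%) held 3 or more. That cutoff equals the count in this window, which is shown because Bcl6 differed, so nothing is read from the share. The full TTCCTAGAA was in none of the 9 windows and in 0.411% of all. The windows of Zbtb1, Zbtb7a, Zbtb7b and Zbtb17 held none of these motifs. A match describes the letters of a window and does not show that a factor binds there. GC content was 43.3% in the Zbtb20 window and 51.7% to 77.7% in the other 8, beside a median of 52.7% over all windows.

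The label of the cells was checked first. All 7 measured genes of the T lineage list, among them Cd3e, Ptcra and Il2ra, which encodes CD25, lay above the array medians of 30.5 to 32.7 on all 6 arrays. Their summed intensity ran from 55279 to 59196 over the MycGFP negative and from 43891 to 54393 over the MycGFP positive arrays, without overlap. All 7 had a negative log2 difference and none passed; the furthest was Cd247, the gene of the CD3 zeta chain, at -1.16 (SE 0.27, limma adjusted p = 0.0625). The part of this shift in the results below was not tested. Myc intensity, the check on the sort, was 801, 1135 and 1303 on negative and 2628, 3390 and 2274 on positive arrays (log2 difference 1.37, SE 0.24, limma adjusted p = 0.0329). Its call was lost without positive array 1, 2 or 3 or negative array 2, at adjusted p up to 0.108. Of markers of other cells, 7 B cell genes summed to 309 to 840 in the negative group and to 318 to 678 in the positive group, with 1 of them, Cd79b, above the median on every array and Pax5 below it on every array. The sum of 8 myeloid genes was 258 to 9823 and 183 to 2174, highest in each group on array 2 and there mostly S100a8 and S100a9. Cd14, Itgam and Adgre1 were below the median on all arrays. The sum of 5 erythroid genes was 74.6 to 392 and 130.1 to 365, and that of 6 NK cell genes 4848 to 5507 and 6064 to 8103, mostly Gzma, with Ncr1 below the median throughout. In sorted bulk cells, fewer cells that express a gene and less of its RNA per cell cannot be told apart.

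Bcl6, the transcriptional repressor of germinal centre B cells and follicular helper T cells, had 2 probe sets, and both were lower in MycGFP positive cells on every array. At probe set 1421818_at the intensity was 4767, 5442 and 3729 on negative arrays 1, 2 and 3 and 1119, 1297 and 1593 on the positive arrays of the same numbers. Every positive value lay below every negative value, with means of 4646 ± 863 and 1336 ± 239 (SD, n = 3). The log2 difference, positive minus negative, was -1.80 with an SE of 0.21, a 3.47-fold lower level.

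The other Bcl6 probe set, 1450381_a_at, read 693, 1024 and 482 on negative and 119.9, 164 and 169 on positive arrays. Its groups did not overlap either, at means of 733 ± 273 and 151 ± 27.1 (SD, n = 3) and a log2 difference of -2.23 with an SE of 0.30. Both probe sets ranked the arrays alike within each group: array 2 was the highest and array 3 the lowest of the negative arrays, and array 3 was the highest and array 1 the lowest of the positive ones. By array number the log2 differences were -2.09, -2.07 and -1.23 at the first probe set and -2.53, -2.64 and -1.51 at the other, so the pair numbered 3 had the smallest difference in both. Leaving out any one array kept the difference between -1.95 and -1.67 at 1421818_at and between -2.50 and -1.95 at 1450381_a_at. The B cell sums of the groups overlapped, as given above. Cd79b, a B cell receptor subunit gene, was lower in positive cells at each array number, at log2 differences of -0.76, -1.48 and -1.60. It passed with the array number as a block (limma adjusted p = 0.0452) but not without it (-1.28, SE 0.82, adjusted p = 0.445). Blk, a kinase gene of the same list, passed with the block as well, at a log2 difference of 1.56 (limma adjusted p = 0.0339). Without the block its SE was 0.54 and its adjusted p 0.159. The part of B cell RNA in the Bcl6 difference was not tested.

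**Figure D1:**
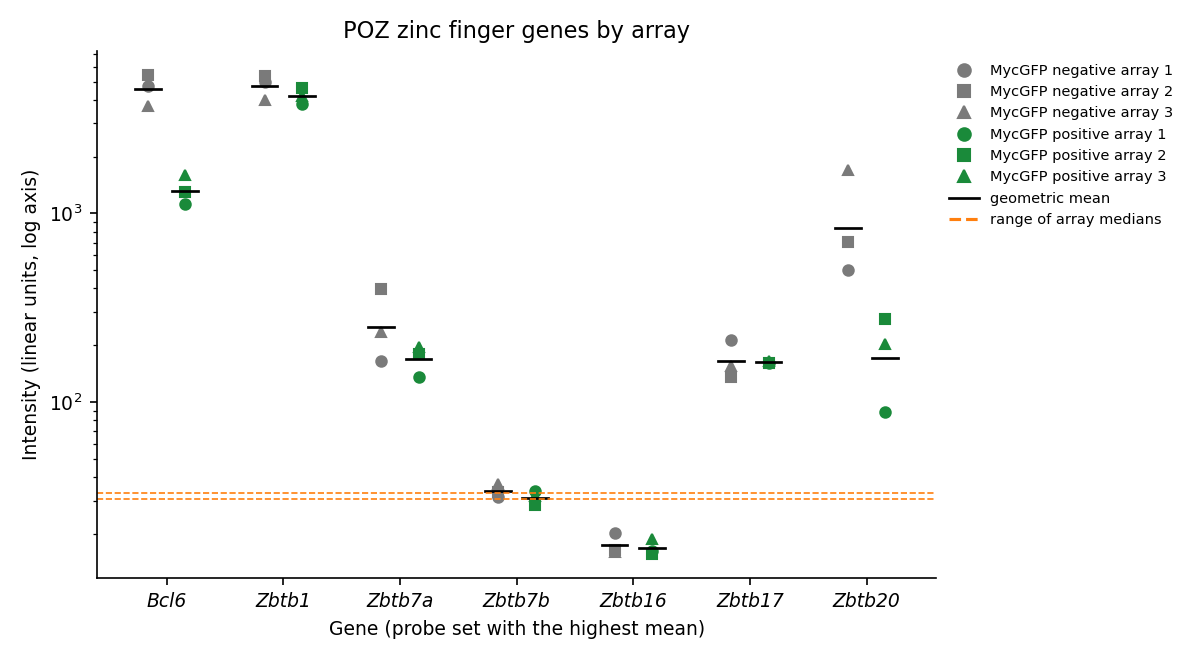
Intensity (linear units on a log axis) of the 7 genes at the probe set with the highest mean, with a point for each array, grey for MycGFP negative and green for MycGFP positive, and shapes for the array number; black bars are geometric means and dashed lines the lowest and highest array median. The groups separate for Bcl6 and Zbtb20, overlap for Zbtb1, Zbtb7a and Zbtb17, and lie near or below the array medians for Zbtb7b and Zbtb16.

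Zbtb20, a repressor related to BCL6 that is known from liver, brain and plasma cells, had 9 probe sets, and all were lower in MycGFP positive cells by the sign of the log2 difference. The differences ranged from -2.30 to -0.20 with a median of -1.84. The groups did not overlap at 7 of the 9, the dim 1439278_at and 1451577_at among them, beside 12% of all probe sets lower without overlap. The brightest, 1438443_at, read 498, 706 and 1697 on negative and 89.0, 275 and 203 on positive arrays. All positive values were below all negative ones, but both groups were widely spread, with means of 967 ± 640 and 189 ± 94.0 (SD, n = 3). This is a 4.93-fold lower level, or -2.30 on the log2 scale (SE 0.58).

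The tightest of the brighter probe sets was 1422064_a_at, at 132, 184 and 156 on negative and 43.6, 42.7 and 36.8 on positive arrays. Its groups did not overlap, with means of 157 ± 25.7 and 41.0 ± 3.69 (SD, n = 3) and a log2 difference of -1.93 with an SE of 0.17, or -1.60 with 16 added to each intensity. Probe set 1439128_at read 88.6, 144 and 261 on negative and 27.8, 36.1 and 48.0 on positive arrays, with a log2 difference of -2.04 and an SE of 0.42. The positive values of both probe sets were close to the array medians, where a fold is uncertain. Probe set 1437066_at went from 112 ± 45.9 to 48.0 ± 8.62 (SD, n = 3), a log2 difference of -1.16 with an SE of 0.30.

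At 1437065_at, with 69.0, 206 and 94.4 on negative and 19.3, 58.1 and 26.3 on positive arrays, the arrays moved by number. The log2 differences within numbers were -1.84, -1.83 and -1.85, although the SD of log2 values within a group was 0.81 and 0.82. Probe set 1437598_at had 43.2, 126 and 122 on negative and 5.56, 54.8 and 45.1 on positive arrays, and its groups overlapped. Probe set 1443471_at overlapped too, with 67.0, 99.3 and 39.4 on negative and 6.51, 22.0 and 155 on positive arrays. Its pair numbered 3 ran the other way from the pairs numbered 1 and 2, at log2 differences of 1.98, -3.36 and -2.18. Single arrays moved both probe sets. Without positive array 1 the log2 difference was -0.81 at 1437598_at and -0.13 at 1443471_at, in place of -1.86 and -1.19, and without positive array 3 it was -2.32 and -2.42. The remaining probe sets were dim: 1439278_at was above the median on 1 array alone and 1451577_at on none, at log2 differences of -1.17 and -0.20.

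Array 2 was the highest negative array at 5 of the 9 Zbtb20 probe sets, and it also had the highest myeloid sum (9823). Most of that sum was S100a8 at 4467 and S100a9 at 4372. Without that array the log2 differences at these 5 were -1.81 at 1422064_a_at, -1.39 at 1437065_at, -0.85 at 1437066_at, -1.60 at 1437598_at and -0.87 at 1443471_at. Each was smaller than with it, which follows by arithmetic from leaving out the highest negative value, and nothing is read from it. Of the myeloid list S100a9 alone, a neutrophil calprotectin gene, passed with the array number as a block (limma adjusted p = 0.0482). Its log2 difference was -1.47, and without the block its SE was 1.94 and its adjusted p 0.743. S100a8 of the same list differed in sign by array number, at log2 differences of 0.70, -2.36 and 0.70 (limma adjusted p = 0.846 with the block). The part of myeloid RNA in the Zbtb20 difference was not tested. Negative array 3, the highest at 1438443_at, 1439128_at and 1439278_at, had a myeloid sum of 258. Probe sets of one gene share its RNA and are not replicates of a condition.

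**Figure D2:**
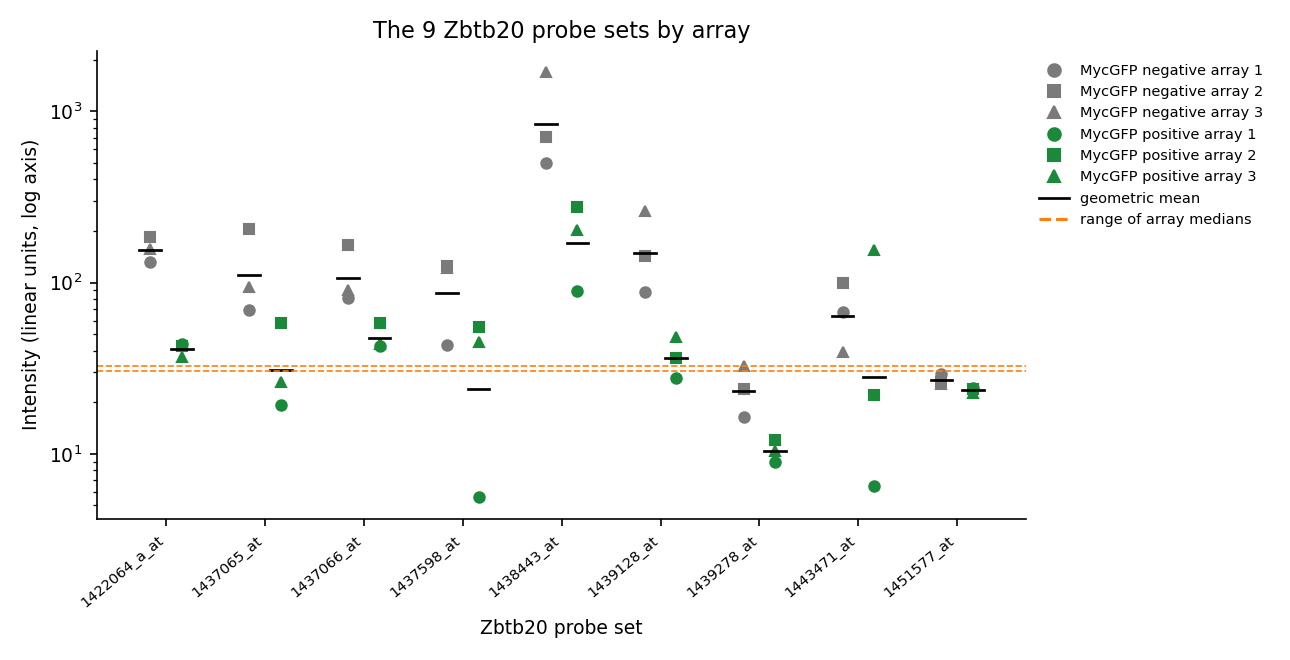
Intensity (linear units on a log axis) at the 9 Zbtb20 probe sets, with a point for each array, grey for MycGFP negative and green for MycGFP positive, shapes for the array number, black bars for geometric means and dashed lines for the lowest and highest array median. At 7 probe sets all positive points lie below all negative ones, as at 12% of all probe sets. At 1437598_at and 1443471_at they overlap, the latter through positive array 3 at 155.

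Zbtb17, which encodes the MYC partner MIZ1, read 212, 136 and 156 on negative and 161, 161 and 165 on positive arrays at probe set 1416224_at. The positive values lay inside the range of the negative ones, with means of 168 ± 39.8 and 162 ± 2.29 (SD, n = 3) and a log2 difference of -0.02 with an SE of 0.19. The sign of this difference was not stable: it was 0.16 without negative array 1, the brightest, and 0.01 with array weights, and it was -0.17 when each array was centred on its median gene. The other probe set, 1443041_at, was below the array median on all 6 arrays, at 8.98 to 14.9.

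Zbtb1, needed for early lymphocyte development, had its brighter probe set, 1424750_at, at 4982, 5332 and 3995 on negative and 3787, 4634 and 4208 on positive arrays. The groups overlapped, with a log2 difference of -0.17 and an SE of 0.17. The other, 1438110_at, read 372, 399 and 256 on negative and 341, 774 and 347 on positive arrays, so that positive array 2 stood above the other 5. Its log2 difference was 0.42 with an SE of 0.37, and 0.03 without that array. The 2 probe sets of Zbtb1 thus differed in sign, each by about its SE.

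Zbtb7a, which encodes LRF, a repressor in B and erythroid development, had 3 probe sets, all lower in positive cells by sign. Probe set 1437255_at read 78.7, 83.9 and 83.6 on negative and 61.2, 62.6 and 62.8 on positive arrays. Its groups did not overlap and its log2 values were tight, with SDs of 0.052 and 0.020 in negative and positive cells and a log2 difference of -0.40 (SE 0.12). The brightest, 1452932_at, read 165, 396 and 235 on negative and 135, 181 and 196 on positive arrays, with overlapping groups and a log2 difference of -0.56 (SE 0.34), or -0.22 without negative array 2. Probe set 1450093_s_at lay between 26.1 and 56.0 on all arrays, near the array medians, with a log2 difference of -0.33 (SE 0.26).

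Zbtb7b and Zbtb16 were near or below the array medians in both groups. The 2 probe sets of Zbtb7b, whose product ThPOK commits thymocytes to the CD4 lineage, ranged over 28.3 to 36.6 and over 7.55 to 11.4, with log2 differences of -0.11 (SE 0.14) and -0.29 (SE 0.15). The 3 probe sets of Zbtb16 ranged over 4.85 to 20.7 and were below the array median on every array, with log2 differences of -0.20 to 0.07. At such levels no order between the groups can be read, and no expression level can be given for either gene.

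Over the 7 genes, each at its probe set with the highest mean, the median log2 difference was -0.17 beside 0.01 over all genes. Bcl6 alone of the 7 passed an adjusted p under 0.05 (limma, Benjamini-Hochberg over 18193 genes, two-sided), beside 1.51% of all genes called lower and 4.62% called higher. With the array number as a block, 2 of the 7 passed, Zbtb20 being the second, beside 354 of the 18193 genes called lower and 1047 called higher. Without positive array 2 no gene of the 18193 passed. Without negative array 2 none of the 7 did, beside 37 of all genes called lower and 131 called higher. Groups that did not overlap were found for 2 of the 7, Bcl6 and Zbtb20, beside 11.2% of genes lower without overlap. Of the 23 probe sets, 4 passed over all 34945 probe sets, 2 of Bcl6 and 2 of Zbtb20, beside 2.16% called lower. The groups did not overlap at 11, all lower, beside 12% of all probe sets lower without overlap. Among the 11, Zbtb7b 1455071_at and Zbtb20 1451577_at were below the array median on every array. These counts describe genes picked on this contrast and nothing is read from them.

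**Figure D3:**
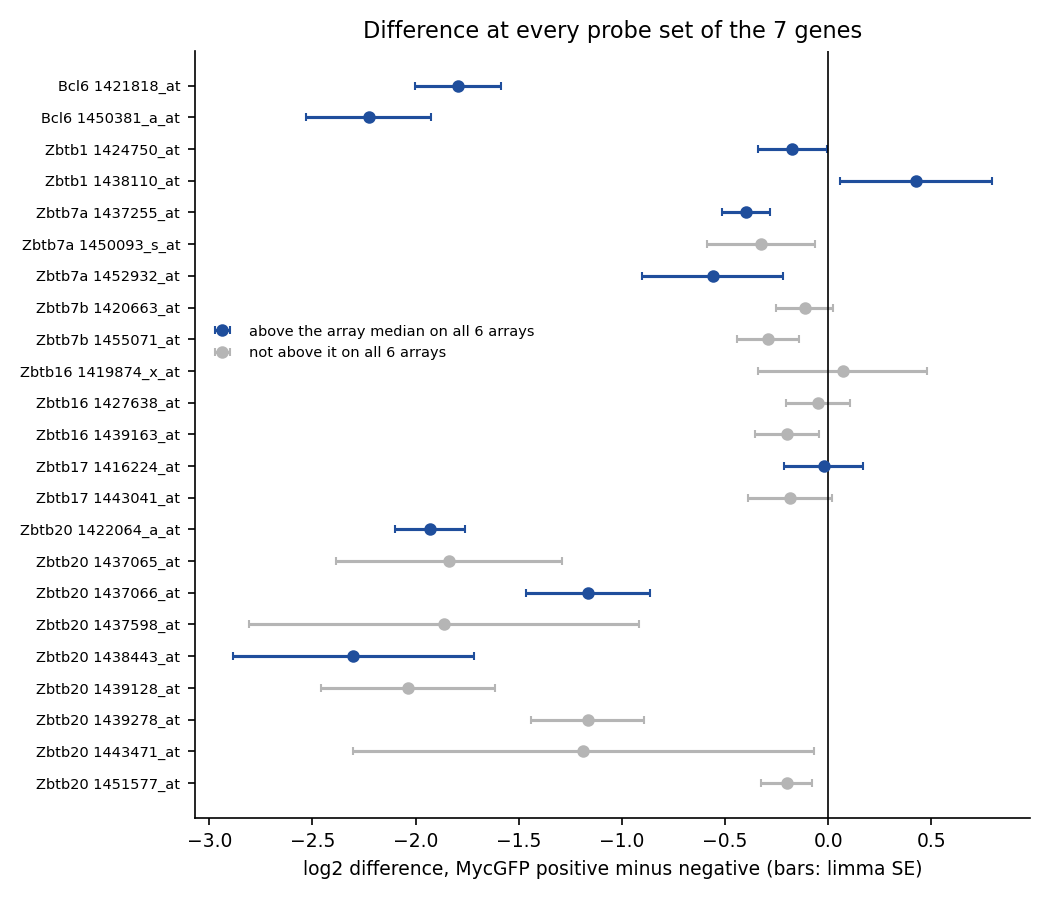
Log2 difference of intensity, MycGFP positive minus negative, at each of the 23 probe sets, with bars of limma's SE; blue probe sets were above the array median on all 6 arrays (10 of 23), grey ones were not. The 2 Bcl6 and 8 of the 9 Zbtb20 probe sets lie below -1, of which 1437598_at and 1443471_at are at -0.81 and -0.13 without positive array 1, and those of the other 5 genes lie between -0.56 and 0.42.

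The genes whose profile over the 6 arrays was most like that of Bcl6 were found by the root mean square distance of log2 values centred on each gene's mean, among 9563 genes with a mean above the median probe set. They were Mr1, which encodes an MHC class I-related molecule that presents vitamin B metabolites, at a distance of 0.08, Fbxl12, an F-box protein gene, at 0.13, and Ypel3, a gene of the Yippee family, at 0.16. Mr1 read 886, 1145 and 751 on negative and 240.4, 281 and 339.6 on positive arrays, which repeats the order of the arrays seen for Bcl6. For Zbtb17 the nearest were Nceh1, a neutral cholesterol ester hydrolase gene, at 0.05, Mvp, the major vault protein gene, at 0.06, and the gene model 4930453N24Rik at 0.06. For these 3 genes, as for Zbtb17, negative array 1 was the brightest of the 6. Both sets of genes were chosen for their likeness over these same arrays, so a shared order of the arrays is not a separate result.

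Of 41 other POZ zinc finger genes listed, 40 were measured and 1 fell, while none rose, at a median log2 difference of -0.09 beside 0.01 over all genes. The counts of this and the following lists stand beside 1.51% of all genes called lower and 4.62% called higher. Zbtb18, which encodes a repressor also called RP58, read 5532, 5493 and 4469.9 on negative and 2901, 3161 and 3146 on positive arrays. It was 1.68-fold lower without overlap of the groups (log2 difference -0.75, SE 0.14, limma adjusted p = 0.0376). With the array number as a block it did not pass (adjusted p = 0.0614), and it passed when negative array 3 was left out but not when any other array was, at adjusted p up to 0.119. Before adjustment, 2 positive and 4 negative differences of the list had p under 0.05 in limma. The share of all genes with such a p in this fit was not counted, so nothing is read from these 2 counts. The groups did not overlap for 7 of the 40, beside 28.1% of all genes. The extremes of the list, named after their values were seen, were Zbtb4, a methyl-CpG binding member, at -1.74 (SE 0.62, limma adjusted p = 0.167) and Zbtb8a at 1.19 (SE 0.41, adjusted p = 0.155).

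Of 19 corepressors and partners of POZ proteins, 17 were measured, 1 fell and none rose, at a median log2 difference of 0.29. Hdac7, a class IIa histone deacetylase gene that is expressed in thymocytes, read 1942, 1909.6 and 1585 on negative and 822, 1105 and 1071 on positive arrays. It was 1.82-fold lower (log2 difference -0.87, SE 0.17, limma adjusted p = 0.0433), did not pass with the array number as a block (adjusted p = 0.0663), and was lost when any one of the 6 arrays was left out (0.0584 to 0.125). The corepressor subunit genes Bcor at 0.32 (SE 0.43) and Hdac3 at 0.39 (SE 0.14, adjusted p = 0.181) did not pass.

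Of 13 partners and targets of MIZ1, all measured, 1 rose and 1 fell, at a median log2 difference of 0.16. Topbp1, whose product activates the ATR kinase and binds MIZ1, read 596, 408 and 415 on negative and 1406, 1078 and 1105 on positive arrays. It rose 2.55-fold (log2 difference 1.35, SE 0.21, limma adjusted p = 0.0243), and the call was kept without negative array 1 but lost without any of the other 5 arrays, at adjusted p up to 0.0837. Mxd4, a MAX partner that opposes MYC, read 1571, 2304 and 1983 on negative and 466, 892 and 826 on positive arrays. It fell 2.75-fold (adjusted p = 0.0438), a call lost when any one array was left out (0.0567 to 0.127) and with 16 added to each intensity. The classic MIZ1 target genes Cdkn1a and Cdkn2b, which encode the CDK inhibitors p21 and p15, were at mean intensities of 21.1 and 44.0 and of 12.0 and 16.6 in negative and positive cells and did not pass (adjusted p = 0.363 and 0.282). Cdkn1a read 21.2, 13.3 and 28.9 on negative and 22.2, 76.4 and 33.4 on positive arrays, so its positive mean rests largely on array 2. The other Cdkn1a probe set had the opposite sign.

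Of 27 genes described as repressed by BCL6, 24 were measured, 2 rose and 2 fell, at a median log2 difference of -0.27. With the array number as a block 6 passed, the added ones being Chek1, a DNA damage checkpoint kinase gene, and Cd69, an early activation marker of lymphocytes. Chek1 had a log2 difference of 3.12 (limma adjusted p = 0.0438 with the block, and 0.0564 with an SE of 0.70 without it). That of Cd69 was -1.34 (limma adjusted p = 0.0399 with the block, and 0.0577 with an SE of 0.30 without it). Atr, the replication stress kinase gene, read 117.5, 117 and 125 on negative and 296, 346 and 213 on positive arrays. It rose 2.34-fold (log2 difference 1.22, SE 0.20, limma adjusted p = 0.028), kept the call without positive array 3 and lost it without any other array, at adjusted p up to 0.0916. Its difference averaged over all its probe sets was 0.65 (adjusted p = 0.0699). Il7r, the interleukin 7 receptor gene, read 350.5, 989 and 324 on negative and 2454, 3489.6 and 2517 on positive arrays, and its call (adjusted p = 0.0333) was kept without negative array 2 alone, at adjusted p up to 0.118 without another array.

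The 2 genes of that list that fell were Bcl2l1, which encodes the survival protein BCL-XL, and Rora, a nuclear receptor gene of innate-like lymphocytes. Bcl2l1 read 3063, 2688 and 1869 on negative and 1200.0, 732 and 912 on positive arrays (log2 difference -1.42, SE 0.26, limma adjusted p = 0.0363). Its call was kept without negative array 3 alone, at adjusted p up to 0.116 without another array, and it was lost for the mean of all its probe sets (adjusted p = 0.0636). Rora read 141, 86.0 and 75.7 on negative and 18.4, 14.5 and 13.3 on positive arrays, where it lay under the array medians (log2 difference -2.67, SE 0.27, adjusted p = 0.0116). Of its 8 other probe sets 3 had the opposite sign, the mean of all 9 did not pass (adjusted p = 0.0853), and the call was lost without positive array 2 or 3, at adjusted p up to 0.0621. Prdm1, which encodes BLIMP1 and is the best known BCL6 target, had mean intensities of 25.2 and 16.3, below the array medians (adjusted p = 0.212).

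Of 11 genes of the CD4 and CD8 lineage choice in which ThPOK acts, 10 were measured, 1 fell and none rose, at a median log2 difference of -0.20. That gene was Cd4, whose silencer ThPOK opposes, at 5119.7, 5966 and 3208 on negative and 871, 406 and 723 on positive arrays (log2 difference -2.86, SE 0.36, limma adjusted p = 0.017). The call was lost without negative array 2 or positive array 2 or 3, at adjusted p up to 0.0621. With the array number as a block Cd8b1, at a log2 difference of -1.59, also passed (limma adjusted p = 0.0454). Without the block its SE was 0.36 and its adjusted p 0.0579. Zbtb7b itself was near or below the array medians in both groups, as given above.

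Of 14 genes of the innate-like T cell programme in which PLZF acts, not all of them its targets, 13 were measured, 1 rose and 4 fell. Of all genes, 4.62% were called higher and 1.51% lower. The median log2 difference of the list was -0.36, while Zbtb16 itself was below the array median on every array. Il17rb, the receptor gene for interleukin 25, read 61.1, 80.7 and 82.9 on negative and 182, 159.8 and 153 on positive arrays and rose 2.22-fold (limma adjusted p = 0.0225). The falls were those of Rora, of Slamf1, a receptor of the SLAM family, at 568, 829 and 528 on negative and 122, 133 and 163 on positive arrays, of Egr2, a transcription factor gene induced by the T cell receptor, at 346, 559 and 830.3 and 96.8, 109 and 104, and of Il18r1, the interleukin 18 receptor gene. Slamf1 lost its call without positive array 2 alone (adjusted p = 0.0621), and Egr2 and Il17rb lost theirs without negative array 2 or any one positive array, at adjusted p up to 0.0761 and 0.0881. Il18r1 was below the array median on every array, at mean intensities of 21.8 and 9.83, and did not pass with the block (limma adjusted p = 0.0598). With 16 added to each intensity its log2 difference was -0.54 in place of -1.11, and the call was lost (adjusted p = 0.0828). Its call was kept without negative array 3 alone, at adjusted p up to 0.13 without another array.

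Of 4 genes reported as repressed by ZBTB7A, limma called none. The 2 with an unadjusted p under 0.05, a level for which the share of all genes was not counted, both had a positive difference. These were Cdkn2a, which encodes the tumour suppressors p16 and p19 ARF, at a log2 difference of 0.92 (SE 0.32, adjusted p = 0.165), and Pkm, the pyruvate kinase gene, at 0.51 (SE 0.19, adjusted p = 0.193). The medians of the 7 lists, from -0.36 to 0.29, are to be read beside 0.01 over all genes. Centring the arrays on their median gene moved the median of all genes to -0.14. It lowers every difference by the same amount, so the list medians move with it and keep their distance from all genes. That centring gave 502 higher and 381 lower genes in place of 840 and 275.

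**Figure D4:**
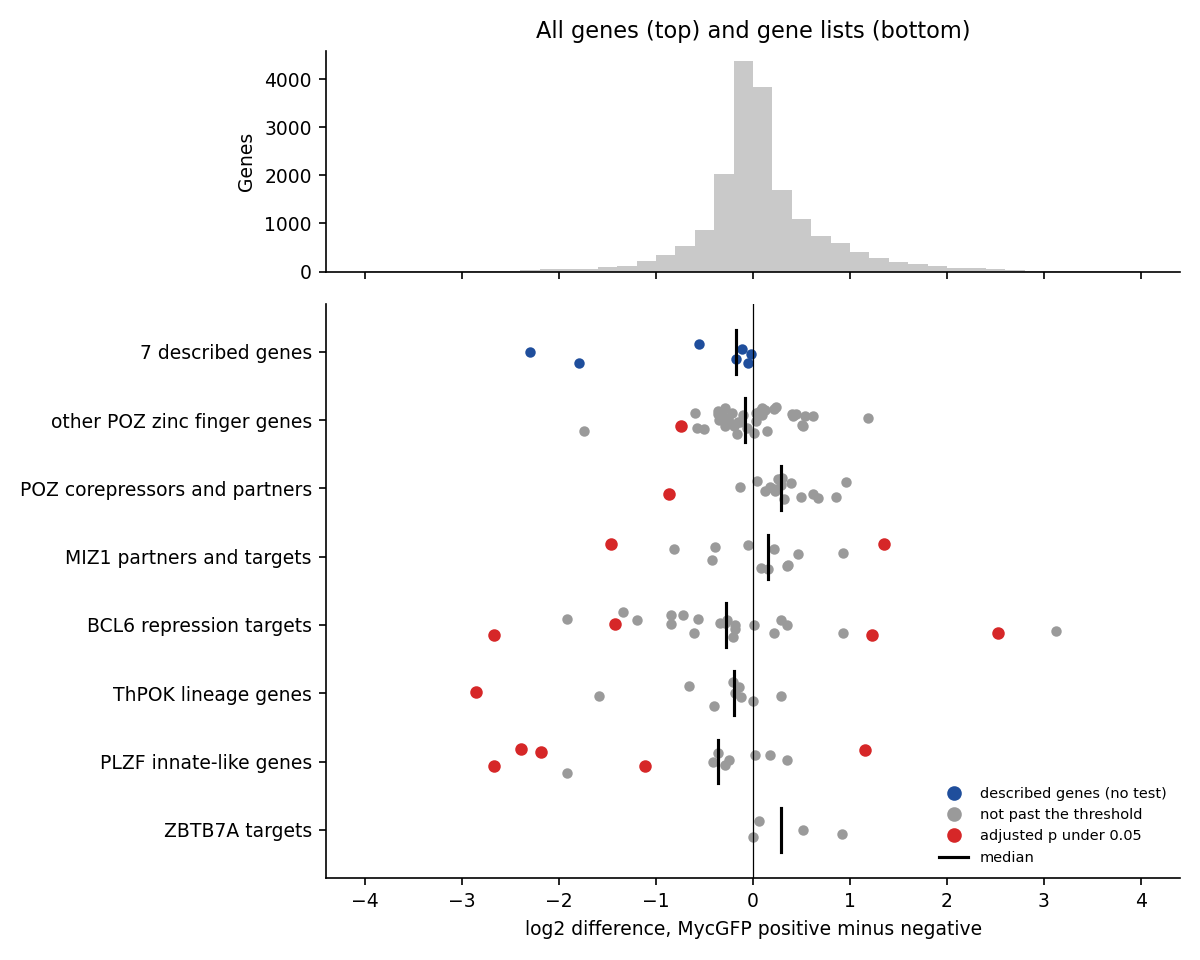
Top, number of genes by log2 difference (MycGFP positive minus negative, in steps of 0.2, values beyond 4 or -4 placed in the last step); bottom, the log2 difference of the 7 described genes and of each measured gene of the 7 lists, with points spread at random in height, black bars for medians and, in the lists, red for adjusted p under 0.05. Bcl6 and Zbtb20 lie at -1.80 and -2.30, to the left of the other 5 described genes and of the 40 other POZ zinc finger genes, which range from -1.74 to 1.19. The 7 described genes were picked with this contrast in view, so nothing is read from this order.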

How the data were processed

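The deposited values are probe set intensities on a linear scale, made by the authors with RMA per the submitters' processing notes; version and genome build are not given in the sources used here. Per the labels' protocols, 5 ng of RNA was amplified before labelling, which adds noise to dim genes. Because RMA equalises the arrays, these values cannot show whether total RNA per cell differed. The log2 of each deposited intensity was taken. A level near the array median may be background, as no detection calls were used, and levels of different probe sets are not compared.

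Groups came from the sample titles. Gene names come from the array's platform annotation, with symbols updated through the RefSeq table of GRCm38.p6; 64 control probe sets and those with several symbols or none were left out. Each of 18193 genes took its probe set with the highest mean; every probe set of the 7 genes was also fitted among all 34945. Differences, SEs and adjusted p-values are from limma 3.58.1 in R 4.3.3 (lmFit, eBayes, 4 residual and 2.17 prior degrees of freedom, threshold 0.05), tested on simulated data. Folds are ratios of geometric means.

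The genes and lists were chosen with earlier results of these data known. The 7 lists hold 121 different genes, 8 of them in several lists, and 113 were measured. Named were the 7 genes, Myc and up to 6 called genes of each list, or its 2 largest differences where none was called. The 3 nearest profiles to Bcl6 and to Zbtb17 were named too. Bcor, Hdac3, Cdkn1a, Cdkn2b, Prdm1, Cd8b1, Cd79b, Blk, S100a8, S100a9, Cd247, Chek1, Cd69, Zbtb4 and Zbtb8a were added after their values were seen.

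Both groups are numbered 1 to 3. Deviations from group means correlated across genes at r = 0.38, 0.21 and 0.39 for arrays of one number and at -0.32 to -0.03 for others. Genes are not independent, and the labels do not tie a number to a leukaemia. Deviations within a group cancel out, so the negative correlations are partly forced by the positive ones and are no separate evidence of pairing. The numbers were taken to pair the arrays in the block fit and in the differences by array number only. The main fit, which gave the SEs and all adjusted p-values not marked as from the block, did not use them. The design's 3 independent leukaemias are not tied to single arrays by any label, so p-values cover the spread among these arrays, whatever its source. Alternatives were this block, leaving out each array, the mean of all probe sets, no _x_at, _s_at or _a_at probe sets, centring, an added 16, a level filter, a trended robust variance and array weights.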

Additional observations from a re-analysis of the deposited data

How the results depend on the processing

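The number of arrays limits the precision throughout. Leaving out single arrays gave 0 to 862 higher and 0 to 238 lower genes, with 0 of both without positive array 2, where 2209 and 976 genes had an unadjusted p under 0.05 in limma. The counts called then ranged over 0 to 1 of the 7 genes, 0 to 1 other POZ genes, 0 corepressors (lowest and highest), 0 to 1 MIZ1 genes, 0 to 3 BCL6 targets, 0 to 2 ThPOK genes and 0 to 5 PLZF genes. The replicate block, the fit that takes arrays of one number as pairs, called 1047 of all genes higher and 354 lower. There 2 of the 7 genes, 0 other POZ genes, 0 corepressors and 2 ThPOK genes passed. Other settings moved counts as follows. The mean of all probe sets gave 3 other POZ and 2 ThPOK genes. Centring gave 502 higher genes and 2 other POZ genes, and adding 16 gave 2 other POZ genes and 1 MIZ1 gene. Among genes above the median level, 2 of the 7 genes, 2 ThPOK genes and 3 PLZF genes passed, beside 1022 genes called higher and 328 called lower. The trended robust variance gave 0 corepressors and 2 ThPOK genes, and array weights 2 ThPOK genes. The cause was not tested. The counts not given here stayed within 1.5 times the reported ones, and ZBTB7A targets stayed at 0. Of 230 recomputed differences of the 23 probe sets, 222 moved by less than the SD between arrays and 8 by more, through centring or the added 16. The sign changed in 9, all at 2 Zbtb16 probe sets or at Zbtb17 1416224_at.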
